A study of Vulpes vulpes with 8 samples.

Results

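The B cell and plasma cell lineage is represented here by 9 symbols, CD79A, CD79B, MS4A1, POU2AF1, JCHAIN, MZB1, TNFRSF17, PRDM1 and PIGR. Every probe set that the platform annotation pairs with just 1 of these symbols was taken, which gave 16 of the 43035 probe sets of the array and 7 of its 15115 genes named in this way. MZB1 and TNFRSF17 were not analysed here, because the annotation used pairs no probe set with either symbol. Of the 16 probe sets, 9 from 6 genes passed a filter that left out the dimmest 40% of probe sets, those with a mean signal under 18.2. The 7 that did not pass, which include the only probe set of CD79B, are given by value without a model test.

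The tissue was gingiva of red foxes (Vulpes vulpes) on the Affymetrix Canine 2 array, so fox RNA was read by probes designed on dog sequence. The 5 HHG affected animals carried the early signs of hereditary hyperplastic gingivitis, a heritable overgrowth of the gum, and were foxes 19, 55 and 107 (male) and 381 and 757 (female). The 3 HHG unaffected animals were foxes 86 and 97 (male) and 402 (female), and each fox gave 1 array. The labels name no treatment, genotype, age or strain. Some pieces were taken just after euthanasia in the pelting season and others from anaesthetised foxes in late spring, and the labels do not say which fox belongs to which season.

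B cells carry an antigen receptor made of membrane immunoglobulin and the signalling pair CD79A and CD79B, and most display the surface protein MS4A1, known as CD20. When activated B cells become plasma cells, PRDM1 (Blimp-1) shuts down the B cell programme, the endoplasmic reticulum expands, and immunoglobulin is secreted in bulk. JCHAIN links immunoglobulin A or M into polymers, and the epithelial receptor PIGR binds those polymers and carries them to the mucosal surface. Plasma cells are a familiar component of inflamed gingiva.

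Values are MAS5 signals, an intensity summarised over the probes of a probe set and scaled per array, so a probe set can be followed from fox to fox but not ranked against another probe set. Each array's background was read from 42 probe sets for bacterial transcripts, at their 95th percentile, and lay between 7.42 and 16.6. The median signal was 28.6 to 33.7 per array. The gingival keratin KRT13 read 6515 to 12982 in the 8 foxes. KRT1 and KRT10 are keratins of cornified epithelium. KRT1 was far higher in affected fox 19 than elsewhere, at 1042 against 4.39 to 36.6. KRT10 read 5124 in affected fox 19, 2455 in affected fox 381, 604 in unaffected fox 402 and 44.4 to 243 in the other foxes. The 5′ actin control split the arrays into a high set (foxes 86, 97, 107 and 757, at 7831 to 8868) and a low set (foxes 19, 55, 381 and 402, at 1354 to 2336), each with foxes of both groups. Unaffected fox 86 stands apart for the genes described here, being highest of all 8 foxes for CD79A, CD79B, MS4A1, POU2AF1 and JCHAIN, so the differences of the member probe sets, and those of the list genes that fox 86 moves by over 1.5 times, are also given without it. Leaving out the unaffected fox that is highest for a gene must raise affected minus unaffected for that gene. All values and tallies without fox 86 are therefore a description.

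The comparison of affected with unaffected gingiva asked whether B cell and plasma cell transcripts differ with the disease. None of the 9 tested probe sets passed the test, and the groups overlapped in 8 of them. JCHAIN covered a 15.6-fold range of signal over the 8 foxes, and its highest and its lowest reading were both in unaffected animals. CD79A and POU2AF1 followed nearly the same order of foxes, whereas PRDM1 and PIGR varied less. The test was limma on log2(signal + 16) with Benjamini-Hochberg adjustment at 0.05 over 25754 probe sets, of which 0.0% were called (0 probe sets, against 693 at an unadjusted p under 0.05). Of the 9 member probe sets, 1 had an unadjusted p under 0.05, 4 had the higher mean in affected foxes and 5 the lower.

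**Figure D1:**
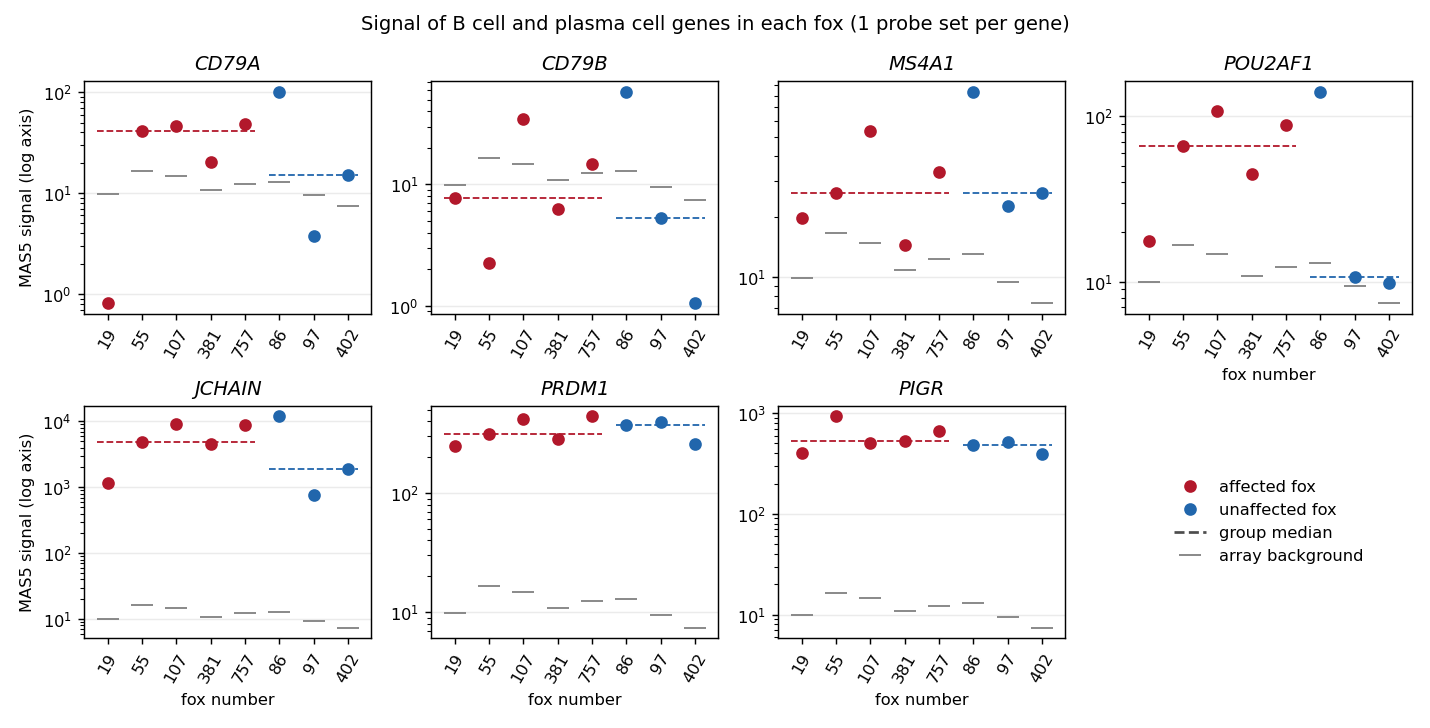
MAS5 signal (log axis, a different range in each panel) of the brightest probe set of each gene against fox number. Red points are affected and blue points unaffected foxes, dashed lines are group medians and grey ticks the background of each array. Fox 86 is the highest point for CD79A, CD79B, MS4A1, POU2AF1 and JCHAIN, and foxes 19 and 97 lie low for CD79A and JCHAIN.

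CD79A, a signalling chain of the B cell receptor, read 0.813, 41.1, 46.7, 20.2 and 48.2 in affected foxes 19, 55, 107, 381 and 757. In unaffected foxes 86, 97 and 402 it read 101.3, 3.71 and 15.2. Foxes 19 and 97, 1 from each group, were at or under array background, fox 86 was highest, and the groups overlapped. Affected foxes averaged 31.4 ± 20.4 (SD, n = 5), and the unaffected 40.1 ± 53.3 (SD, n = 3). On the log2 scale the difference, affected minus unaffected, was 0.03 ± 0.60 (SE), with a 95% interval of -1.30 to 1.37 and an adjusted p of 0.9999 in limma. An exact two-sided permutation test over the 56 splits of the foxes, whose smallest possible p is 0.0179, gave p = 0.964.

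CD79B, its partner chain, was dim. It read 7.71, 2.26, 34.7, 6.23 and 14.7 in affected foxes 19, 55, 107, 381 and 757, and 58.2, 5.31 and 1.05 in unaffected foxes 86, 97 and 402. Only foxes 86, 107 and 757 were above array background, so 3 affected and 2 unaffected foxes have an upper bound in place of a level. The exact permutation test gave p = 0.821.

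MS4A1, the surface protein CD20 of B cells before the plasma cell stage, was above background in every fox on the brighter of its probe sets. It read 19.6, 26.3, 53.6, 14.5 and 33.2 in affected foxes 19, 55, 107, 381 and 757, and 83.8, 22.7 and 26.3 in unaffected foxes 86, 97 and 402. Foxes 86 and 107 were high, and the other 6 lay within 14.5 to 33.2 with both groups mixed. The difference was -0.33 ± 0.36 (SE) on the log2 scale, with an interval of -1.12 to 0.47, an adjusted p of 0.9999 in limma and an exact permutation p of 0.50. The dimmer probe set of MS4A1 ran from 0.463 in fox 19 to 64.5 in fox 86, was at background in 3 foxes, and correlated with the brighter one at r = 0.89 over the 8 foxes.

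POU2AF1, the B cell coactivator of the octamer-binding factors, is kept in plasma cells. In affected foxes 19, 55, 107, 381 and 757 it read 17.6, 65.7, 106.6, 44.4 and 87.7, and in unaffected foxes 86, 97 and 402 it read 140.4, 10.6 and 9.86. Each affected fox lay above both foxes 97 and 402 and below fox 86, so the groups overlap through fox 86 alone. The readings of foxes 97 and 402 were only just above their array backgrounds of 9.46 and 7.42. With all 8 foxes the difference was 0.62 ± 0.61 (SE) on the log2 scale, with an interval of -0.74 to 1.99, an adjusted p of 0.9999 in limma and an exact permutation p of 0.429. Without fox 86 it was 1.48 ± 0.44, with an unadjusted p of 0.00756 and an adjusted p of 0.95 in limma. That omission was decided by the fox's own readings, so the larger value is a description.

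PRDM1, the repressor that drives plasma cell differentiation and that is also made by T cells and by differentiating keratinocytes, was flat across the groups. It read 248, 313, 417, 284 and 441 in affected foxes 19, 55, 107, 381 and 757, and 372, 392 and 257 in unaffected foxes 86, 97 and 402. The difference was -0.01 ± 0.24 (SE) on the log2 scale, with an interval of -0.53 to 0.52, and the exact permutation p was 0.982. The highest fox was 1.78 times the lowest. The 4 arrays of high 5′ actin signal read 372 to 441 and the 4 of low signal 248 to 313, without overlap. The share of all genes that do not overlap between these sets was not counted, so this is a description of the readings. The part of the actin split in the PRDM1 readings was not tested. Within the high set affected minus unaffected was 0.16, and within the low set 0.12.

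JCHAIN, the joining chain of polymeric immunoglobulin, had the largest SD of log2(signal + 16) among the tested member genes. In plain signal the fold range was wider for CD79A (124.6) and CD79B (55.3), whose lowest foxes were at background. The brightest of its 3 probe sets read 1171, 4791, 9154, 4485 and 8941 in affected foxes 19, 55, 107, 381 and 757. In unaffected foxes 86, 97 and 402 it read 11976, 768 and 1911. All 8 readings were far above background. Fox 86 was highest, affected foxes 107 and 757 came next, and foxes 402, 19 and 97 were low. Affected foxes averaged 5708 ± 3364 (SD, n = 5), and the unaffected 4885 ± 6168 (SD, n = 3).

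On the log2 scale the JCHAIN difference was 0.82 ± 0.87 (SE), with an interval of -1.13 to 2.76. The adjusted p was 0.9999 in limma and the exact permutation p 0.482. Over the 8 foxes the SD of log2(signal + 16) was 1.46, larger than for 99.6% of the 10848 genes tested, whose median SD was 0.31. CD79A (SD 0.95) and POU2AF1 (SD 1.02) were also among the most variable genes, above 97.9% and 98.5% of genes, while PRDM1 (SD 0.31) stood above 49.2% and PIGR (SD 0.39) above 67.0%. In bulk tissue, fewer cells of a type and less RNA per cell cannot be told apart.

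The other JCHAIN probe sets were dimmer. The middle one, by mean signal, read 30.7, 111.7, 122.7, 106.8 and 131.6 in affected foxes 19, 55, 107, 381 and 757, and 284.7, 52.0 and 67.5 in unaffected foxes 86, 97 and 402. The dimmest ran from 24.6 in fox 97 to 112.9 in fox 86. Both placed fox 86 first, and they correlated with the brightest probe set at r = 0.90 and 0.70 over the 8 foxes. Their differences were -0.14 ± 0.52 and -0.14 ± 0.37 (SE) on the log2 scale, opposite in sign to that of the brightest probe set, and none of the 3 passed the test. Arrays of the high 5′ actin set averaged 0.99 higher than the low set on the brightest JCHAIN probe set, and affected minus unaffected was 1.56 within the high set and 0.61 within the low set.

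PIGR, the receptor that carries polymeric immunoglobulin across epithelium, had 7 probe sets, of which only the brightest was well above background in every fox. That probe set read 406, 932, 501, 529 and 660 in affected foxes 19, 55, 107, 381 and 757, and 481, 517 and 393 in unaffected foxes 86, 97 and 402. Fox 55 was high and the other affected foxes spread over and beyond the range of the unaffected ones. Affected foxes averaged 606 ± 204 (SD, n = 5), and the unaffected 464 ± 63.9 (SD, n = 3). The difference was 0.33 ± 0.26 (SE) on the log2 scale, with an interval of -0.25 to 0.90, an adjusted p of 0.9999 in limma and an exact permutation p of 0.286.

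The next brightest PIGR probe set was the only member probe set whose groups did not overlap. It read 12.8, 11.4, 10.3, 7.5 and 15.6 in affected foxes 19, 55, 107, 381 and 757, and 59.2, 20.6 and 15.7 in unaffected foxes 86, 97 and 402. The closest foxes of the groups, 757 and 402, nearly touched at 15.6 and 15.7, and 3 affected foxes were at background. The difference was -0.70 ± 0.27 (SE) on the log2 scale, with an unadjusted p of 0.0281 and an adjusted p of 0.9999 in limma. Among all probe sets tested 2.43% had groups that did not overlap (627 of 25754), and the affected mean of 11.5 lies under the filter, so this probe set passed only through the unaffected foxes and its count supports nothing. Without fox 86 the difference was -0.31.

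The PIGR probe sets did not follow each other. The next brightest and the bright probe set correlated at r = -0.19 over the 8 foxes, and the other 5 correlated with the bright one at -0.32 to 0.17. Those 5 probe sets had mean signals of 2.68 to 17.6, all under the filter. The next brightest instead followed the dimmest of the 7 (r = 0.93), which was at background in all 8 foxes and highest in fox 86.

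**Figure D2:**
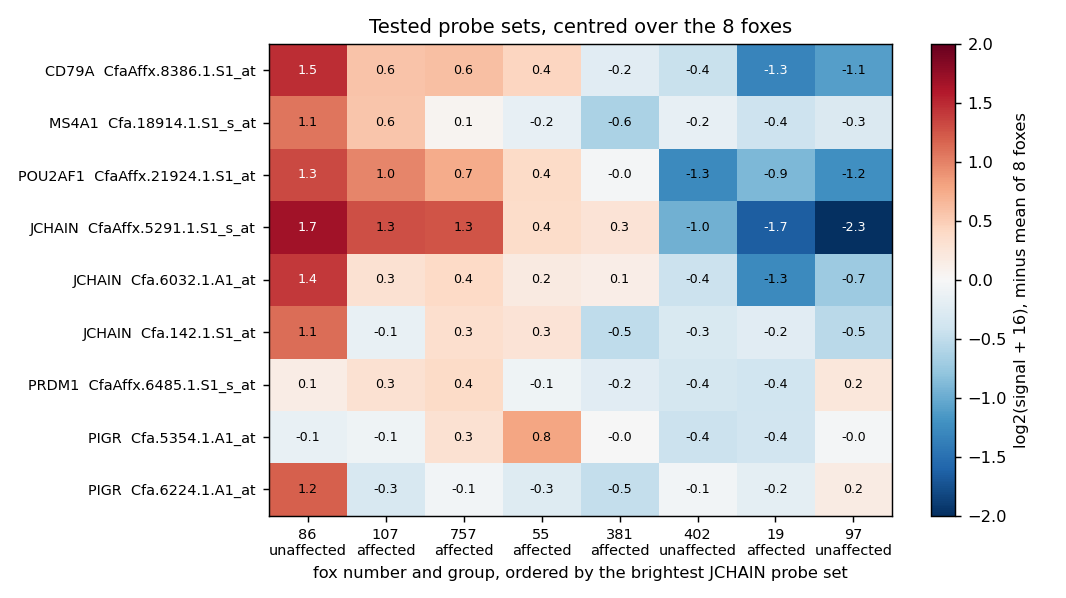
Each tested probe set (row) in each fox (column), as log2(signal + 16) minus the mean of the 8 foxes, with foxes ordered by the brightest JCHAIN probe set. CD79A, POU2AF1 and the JCHAIN rows change from red to blue along that order, whereas both PIGR rows do not. The PRDM1 row changes less, and returns above its mean in fox 97.

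Counting 1 probe set per gene, 0 of the 6 tested member genes had groups that did not overlap, where 2.44% of all genes did (265 of 10848). Without fox 86 the count was 1 of 6, POU2AF1, in which all 5 affected foxes exceeded both remaining unaffected foxes. With these 7 foxes 9.65% of all genes did not overlap (1047 of 10848), so the counts with and without fox 86 are not on the same footing. Under the same omission the JCHAIN difference was 1.91 ± 0.72 (SE) on the log2 scale, with an unadjusted p of 0.0253 and an adjusted p of 0.95 in limma, and 4 of 5 affected foxes exceeded both. CD79A moved to 0.78 and MS4A1 to 0.11, the middle and dimmest JCHAIN probe sets to 0.53 and 0.37, PRDM1 to 0.06 and the bright PIGR probe set to 0.36. Leaving out unaffected fox 97, the lowest JCHAIN reading, instead took the JCHAIN difference to -0.057 and that of CD79A to -0.51. Leaving out any other single fox kept the JCHAIN sign, whereas CD79A, whose difference is near 0, also turned negative without fox 55, 107, 402 or 757. Within the arrays of high and of low 5′ actin signal, in that order, affected minus unaffected was 0.80 and 1.09 for POU2AF1, 0.40 and 0.07 for CD79A, -0.09 and -0.24 for MS4A1, and 0.20 and 0.56 for the bright PIGR probe set.

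**Figure D3:**
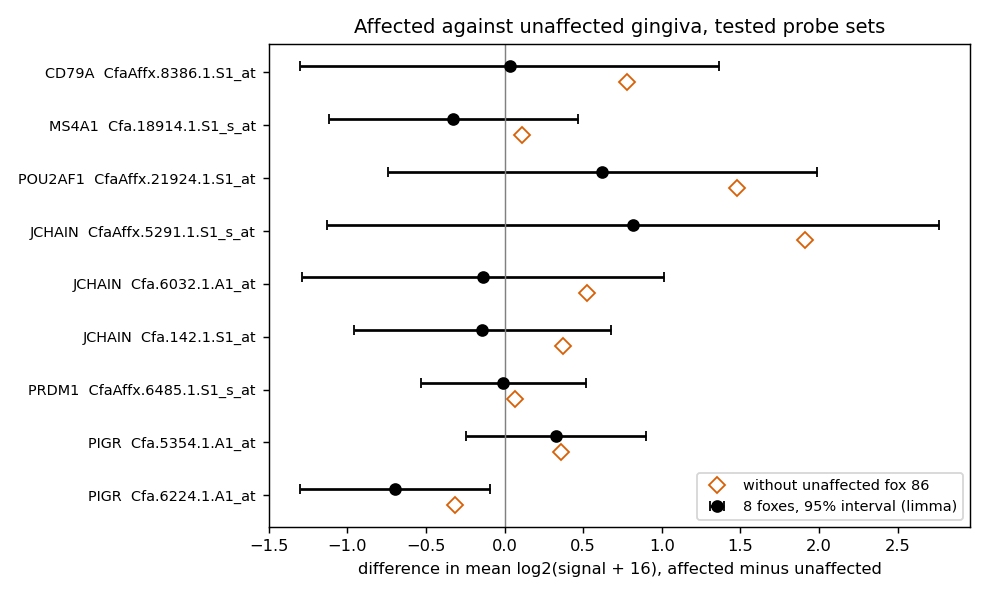
Difference in mean log2(signal + 16), affected minus unaffected, for the 9 tested probe sets. Black points with bars are the fit to 8 foxes with its 95% interval from limma, and open diamonds the same difference without unaffected fox 86. Only the interval of the dimmer PIGR probe set leaves out 0, and the largest moves without fox 86 are those of JCHAIN and POU2AF1, to 1.91 and 1.48.

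The second contrast in the labels is sex. With a term for disease, 0.00388% of probe sets were called between females and males (1 of 25754), and no member was among them. None of the 9 member probe sets reached an unadjusted p of 0.05, against 591 over all probe sets in limma, and 7 had the lower mean in females. JCHAIN differed by 0.25 ± 0.92 (SE), female minus male, on the log2 scale. The disease difference was also compared between the sexes as an interaction, which rests on 1 unaffected female, and the adjusted p in limma was 1.0 for every member probe set.

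The members were next compared with each other over the 8 foxes, as Pearson and Spearman correlations of log2(signal + 16) for all 21 pairs of the 7 genes, with exact permutation p-values adjusted over the pairs. CD79A and JCHAIN correlated at r = 0.95 (exact permutation p = 0.000198, adjusted 0.00417) and rho = 0.95 (adjusted 0.0234), and POU2AF1 and JCHAIN at r = 0.95 (exact permutation p = 0.000819, adjusted 0.00859) and rho = 0.93 (adjusted 0.0234). CD79A and POU2AF1 correlated at r = 0.92 (exact permutation p = 0.00154, adjusted 0.0108) and rho = 0.88 (adjusted 0.0507). Without the 2 foxes farthest from the median of the first gene these r were 0.96, 0.97 and 0.93. Foxes high for the receptor chain were thus high for the joining chain and for the coactivator.

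Of the 21 pairs 4 passed by Pearson r, and 2 did so without fox 86. CD79B and MS4A1 also passed, at r = 0.90 (exact permutation p = 0.0067, adjusted 0.0352), but with rho at 0.57 (adjusted 0.244). Without foxes 107 and 86 their r was 0.19, so that relation rests on those foxes. With MS4A1, JCHAIN correlated at r = 0.68 (adjusted exact permutation p = 0.131). PRDM1 correlated with JCHAIN at r = 0.49 (adjusted exact permutation p = 0.286), and at 0.88 without foxes 19 and 97. With 1 fox left out that r ran from 0.33 to 0.90. PIGR correlated with JCHAIN at r = 0.36 (adjusted exact permutation p = 0.454), a relation between the receptor and its cargo's joining chain that did not pass. The sets of high and low 5′ actin signal hold 4 foxes each, too few for a correlation within them. On the log2 scale the high set averaged above the low set by 0.99 for JCHAIN, 0.91 for POU2AF1 and 0.78 for CD79A. That step was 0.69 for MS4A1, 0.53 for PRDM1 and 0.01 for the bright PIGR probe set. Its part in these correlations was not tested.

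**Figure D4:**
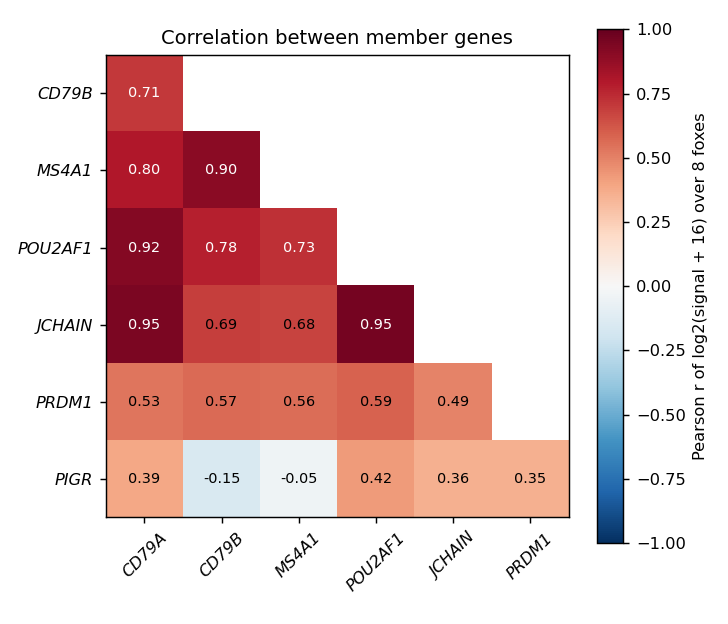
Pearson r of log2(signal + 16) over the 8 foxes for each pair of member genes, 1 probe set per gene. CD79A, POU2AF1 and JCHAIN correlate at 0.92 to 0.95 with each other, and the PIGR row runs from -0.15 to 0.42.

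Among all genes, POU2AF1 ranked 24 and CD79A ranked 37 of 10847 in correlation with JCHAIN, against 1048 for MS4A1, 2020 for PRDM1 and 2827 for PIGR. The 5 named genes whose pattern was most like that of JCHAIN, among 6022 genes whose highest fox was at least 2 times the lowest, were AOAH (r = 0.99), CLEC2D (0.98), RIPOR2 (0.98), ITGAX (0.98) and TLR1 (0.98). AOAH deacylates bacterial lipopolysaccharide, ITGAX is the CD11c integrin of myeloid cells and TLR1 a receptor for bacterial lipopeptides. For CD79A they were PRKCB (0.99), DLA-DMB (0.99), ARHGAP25 (0.98), CD48 (0.98) and TNFRSF4 (0.98). PRKCB is a kinase of B cell receptor signalling and DLA-DMB a dog MHC class II chaperone chain. For PIGR they were GAREM1 (0.97), NQO2 (0.97), CLDN3 (0.96), SLC35C1 (0.96) and GMDS (0.95). CLDN3 is an epithelial tight junction protein, SLC35C1 the Golgi transporter of GDP-fucose and GMDS the enzyme that begins its synthesis. These genes were chosen for their r, which is a description over 8 foxes that share their arrays.

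The annotation names no immunoglobulin heavy or light chain gene by symbol, so the chains that JCHAIN joins were not analysed here. Of the 50 probe sets most like JCHAIN, at r = 0.96 to 0.99, 22 have no single symbol in the annotation, whereas 24.9% of all tested probe sets have none.

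The rest of the pathway was read from lists of genes, 1 probe set per gene, and 0 members of any list passed the limma test. Over all 10848 genes the median difference was -0.03 on the log2 scale, 45.3% had the higher mean in affected foxes and 17.5% were highest in fox 86. Of the list of B cell receptor signalling genes, 14 of 18 were tested, 8 with the higher and 6 with the lower mean in affected foxes, at a median of 0.04. SYK, the kinase recruited by the CD79 chains, read 39.8, 122.0, 159.3, 84.0 and 137.1 in affected foxes 19, 55, 107, 381 and 757 and 182.2, 38.7 and 49.0 in unaffected foxes 86, 97 and 402. From highest to lowest the foxes stood in the same order as for JCHAIN, and its difference was 0.38 ± 0.47 (SE), or 0.96 without fox 86. The phosphatase PTPN6 differed by 0.30 ± 0.45 (0.80 without fox 86), and the adaptor BCL10 by -0.21 ± 0.32. All 14 genes of this list correlated positively with JCHAIN (median r = 0.85, against -0.03 over all genes), and 10 of 14 were highest in fox 86. Without fox 86 the list's median was 0.46, with 10 of 14 genes higher in affected foxes.

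Of 24 other B cell genes 10 were tested, 2 with the higher and 8 with the lower mean in affected foxes (median -0.11). The direction turned without fox 86, in which 6 of the 10 were highest, to 6 of 10 higher and a median of 0.22. FCMR, the receptor for immunoglobulin M, differed by 0.23 ± 0.47 (SE) on the log2 scale (0.82 without fox 86), and the costimulatory receptor CD40 by 0.03 ± 0.36 (0.40). The B lineage transcription factor EBF1 differed by -0.44 ± 0.21 (-0.19 without fox 86), and CIITA, the coactivator of MHC class II genes, by -0.37 ± 0.23 (-0.16). Other probe sets gave -0.02 for FCMR, -0.13 for EBF1 and 0.04 for CIITA. CD72 and FCER2 were at background in all 8 foxes. PAX5, the factor that maintains B cell identity, did not pass the filter.

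Of the 12 germinal centre and octamer factors 8 were tested, 6 with the higher and 2 with the lower mean in affected foxes (median 0.09, and 0.18 without fox 86). POU2F2, the octamer factor that POU2AF1 binds, read 35.5 to 56.8 in affected foxes (median 51.6) and 30.8 to 40.7 in unaffected foxes, a difference of 0.34 ± 0.17 (SE) with an adjusted p of 0.9999 in limma. The germinal centre repressor BCL6 differed by 0.28 ± 0.19 (0.16 without fox 86). UNG, a uracil glycosylase that takes part in class switching and in general DNA repair, was the only gene of the list whose groups did not overlap, 1 of 8 where 2.44% of all genes did not. It read 61.6, 44.0, 85.1, 47.8 and 85.1 in affected foxes 19, 55, 107, 381 and 757 and 88.7, 96.0 and 88.5 in unaffected foxes 86, 97 and 402. Its difference was -0.44 ± 0.22, with an adjusted p of 0.9999 in limma.

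Of the 24 genes of plasma cell differentiation and secretion 16 were tested, 10 with the higher and 6 with the lower mean in affected foxes (median 0.03). CD38, an ectoenzyme abundant on plasma cells, read 16, 55.7, 58.0, 41.3 and 113.0 in affected foxes 19, 55, 107, 381 and 757. In unaffected foxes 86, 97 and 402 it read 123.4, 16.2 and 15.7. Foxes 19, 97 and 402 were low and fox 86 high, as for JCHAIN, and the difference was 0.34 ± 0.54 (SE), or 1.05 without fox 86. SEL1L, of endoplasmic reticulum associated degradation, differed by 0.34 ± 0.23, and the plasma cell and epithelial proteoglycan SDC1 by -0.23 ± 0.37 (-0.43 without fox 86). The list holds 12 genes that were highest in fox 86, and 15 of its 16 genes correlated positively with JCHAIN (median r = 0.79).

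DERL3, another component of endoplasmic reticulum degradation that is strong in secretory cells, was chosen after its values were seen. It read 12.4, 60.5, 158.9, 97.3 and 159.6 in affected foxes 19, 55, 107, 381 and 757 and 249.6, 20.3 and 18 in unaffected foxes 86, 97 and 402. Its difference was 0.46 on the log2 scale with 8 foxes and 1.43 without fox 86. The median of the whole list was 0.03 with fox 86 and 0.34 without it, and that of all genes was -0.03 and -0.02.

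Signals that keep B cells alive or draw them into tissue were 18 tested of 26 listed, 8 with the higher and 10 with the lower mean in affected foxes (median -0.08). This tally also turned without fox 86, in which 9 of the 18 were highest, to 13 of 18 higher and a median of 0.19. CXCL13, the chemokine of B cell follicles, read 12.7, 105.8, 367, 322 and 368 in affected foxes 19, 55, 107, 381 and 757 and 714, 39.7 and 2.68 in unaffected foxes 86, 97 and 402. The fox with the highest CXCL13 and the fox with the lowest were both unaffected, and the lowest, fox 402, was under its array background of 7.42. Its difference was 0.96 ± 1.17 (SE) on the log2 scale and 2.46 without fox 86, and the other CXCL13 probe set gave 0.28 with all 8 foxes. CCL28, a mucosal chemokine for IgA plasma cells, differed by 0.20 ± 0.28 (0.45 without fox 86), and CCL20, which attracts CCR6-bearing cells, by -0.58 ± 0.49 (-0.05). TNFRSF13B, the receptor TACI, differed by -0.34 ± 0.24 (-0.19 without fox 86).

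Of the 19 genes that move or regulate the immunoglobulin receptor 18 were tested, 8 with the higher and 10 with the lower mean in affected foxes (median -0.02), and 10 were higher without fox 86 (median 0.02). None of the 18 was highest in fox 86. RAB17, a small GTPase of epithelial transcytosis, read 65.9 to 187 in affected foxes (median 110.2) and 57.4 to 87.5 in unaffected foxes, a difference of 0.59 ± 0.31 (SE). RELA, a subunit of NF-kB, differed by -0.54 ± 0.25. USF2, a factor of the same family as USF1, was the only gene of the list without overlap (1 of 18, against 2.44% of all genes), at 278 to 336 in affected (median 296) and 250 to 277 in unaffected foxes (250, 277 and 269 in foxes 86, 97 and 402). Its difference was 0.17 ± 0.15, and another USF2 probe set gave -0.30.

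Markers of other cells were set beside JCHAIN, whose order of foxes CD79A and POU2AF1 nearly share and PRDM1 and PIGR do not. All 7 leukocyte genes were highest in fox 86 and correlated positively with JCHAIN (median r = 0.91), and their summed signal was 1069 to 4578 in affected foxes and 1721 to 6716 in the unaffected. For the T cell list, 10 of 10 tested genes correlated positively with JCHAIN (median r = 0.84), and 9 were highest in fox 86. Over all 12 T cell genes, tested or not, the sum was 217 to 1106 in affected foxes and 359 to 1943 in the unaffected. For the 7 fibroblast genes the median r was 0.58, with a sum of 10119 to 27317 in affected foxes and 8131 to 30553 in the unaffected. For the 6 of 9 listed keratinocyte genes with a probe set all r were negative (median -0.52). Their sum was 13849 to 20490 in affected foxes and 10587 to 22936 in the unaffected. KRT13, at 6515 to 12982, was the brightest of them in every fox. A sum over probe sets follows its brightest members and is not a measure of the amount of a cell type. The part of leukocyte and keratinocyte content in the readings of JCHAIN, CD79A and POU2AF1 was not tested.

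Plasmacytoid dendritic cells, which can carry JCHAIN, were read from 4 tested markers, 1 with the higher and 3 with the lower mean in affected foxes, and all 4 higher without fox 86. Over the 5 of 8 listed markers with a probe set, tested or not, the summed signal was 387 to 733 in affected foxes and 471 to 1061 in the unaffected. CLEC4C, LILRA4 and TLR7 had none, and GZMB and IL3RA were at background in 4 and 2 foxes. TCF4, a factor of these cells, made up much of that sum, at 271 to 570 and 270 to 744. The sum therefore does not give the amount of these cells. TCF4 differed by -0.13 ± 0.34 (SE) on the log2 scale, or 0.27 without fox 86.

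Further lists concern the tissue around the plasma cells. Of 11 tested gland markers 8 had the higher mean in affected foxes (median 0.30). Over the 14 gland markers with a probe set, tested or not, the summed signal was 678 to 2302 in affected foxes and 1006 to 1235 in the unaffected. The highest sum was that of fox 55, which also had the highest PIGR, and CLDN4 alone gave 1147 of it. All 6 neutrophil genes tested had the higher mean in affected foxes, 5 of them without fox 86, and in 2 of them, LCN2 and MMP9, the groups did not overlap, beside 2.44% of all genes (265 of 10848). LCN2 differed by 1.44 ± 0.35 (SE) on the log2 scale and MMP9 by 1.23 ± 0.33, each with an adjusted p of 0.9999 in limma. LTF differed by 1.275. The remaining neutrophil genes were nearly flat, S100A9 at 0.10, S100A8 at 0.06 (-0.006 without fox 86) and CSF3R at 0.06 (0.52). Of 9 macrophage genes 8 had the higher mean in affected foxes (median 0.18, and 0.54 without fox 86). In 1 of the 9, CD68, the groups did not overlap, where 2.44% of all genes did not. The CD68 difference was 1.07 ± 0.35 (SE), with an adjusted p of 0.9999 in limma, and its other probe set gave 0.31.

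**Figure D5:**
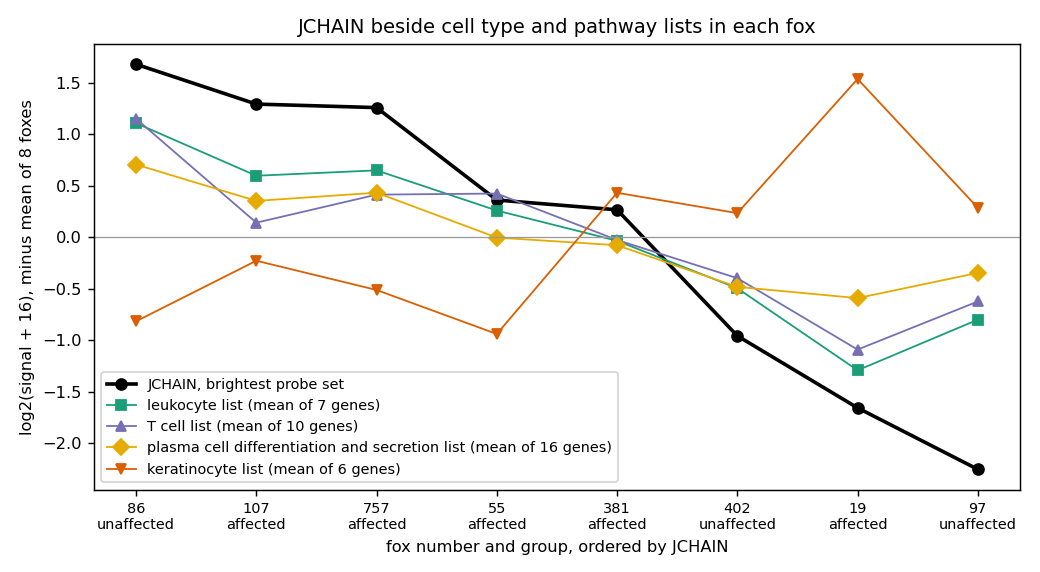
JCHAIN (black) and the mean of each list's genes in each fox, as log2(signal + 16) minus the mean of the 8 foxes, with foxes ordered by JCHAIN. The leukocyte, T cell and plasma cell lists are highest in fox 86 and low in foxes 402, 19 and 97. The keratinocyte list is highest in fox 19 at 1.54, where its cornification keratins KRT1 and KRT10 read 1042 and 5124. KRT13, DSG3, TP63 and SFN of that list were each highest in another fox, and its summed signal was highest in fox 97.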

How the data were processed

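The deposited values are linear intensities, 1 for each probe set on each array. Per the submitters' processing notes they are MAS5 signals, and the version, scaling target and genome build are not given in the sources read. They were used as log2(signal + 16) without further normalization, after 111 control probe sets and the dimmest 40% of the others were left out. The annotation gave 1 symbol for 29254 of 42924 probe sets. The offset shrinks differences of dim probe sets, and precision is limited by the number of arrays.

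The groups were compared with limma 3.58.1 in R 4.3.3. Single genes were compared with exact permutation tests enumerated in Python 3.11.15, with ranks from SciPy 1.17.1. Each gene was represented by its probe set of highest mean signal. The scripts were tested on simulated data. Members and lists were chosen with earlier results of these data known. From each list up to 3 genes per direction with the smallest p could be named, and any others were chosen after their values were seen. Alternatives covered the offset, normalization, filter, covariates, array weights, variance prior, sex, actin sets and each fox left out. Leaving out foxes for the correlations, the sex interaction and the likeness over all probe sets were added after seeing the data. Samples are separate foxes, so p-values reflect the spread between animals.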

Additional observations from a re-analysis of the deposited data

Results flagged for a closer look

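Within the 5 affected foxes, 3 member probe sets had a reading far from the others by Dixon's criterion, which marks about 1 group in 20 by chance (16 probe sets were examined in this group). On the middle JCHAIN probe set, by mean signal, fox 19 read 30.7 and the other 4 affected foxes 106.8 to 131.6. On the fifth brightest PIGR probe set fox 381 read 16.25 and the others 1.02 to 4.31. On the sixth brightest, fox 107 read 9.302 and the others 0.693 to 1.53, all of them at background.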

How the results depend on the processing

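No probe set was called between affected and unaffected foxes under any alternative, which included a threshold of 0.1, 1 probe set per gene and each fox left out. Of 185 recomputed differences of the 9 tested member probe sets, none of those with a test passed the threshold, 154 kept their sign and 31 had the opposite sign. Of those 31, 11 were of PRDM1, 7 each of CD79A and the middle JCHAIN probe set, 4 of the dimmest, and 1 each of MS4A1 and the brightest JCHAIN probe set. CD79A became -0.040 with an offset of 64 and -0.30 within males, and ran from -0.51 to 0.78 with 1 fox left out. The middle JCHAIN probe set became 0.094 with the actin ratio as a covariate and 0.26 with array weights, and the dimmest 0.066 with array weights. PRDM1 became 0.019 after quantile normalization, 0.21 with the actin ratio and 0.083 with array weights. With 1 fox left out, the brightest JCHAIN probe set ran from -0.057 to 1.91, the middle one from -0.55 to 0.53, the dimmest from -0.46 to 0.37, MS4A1 from -0.58 to 0.11 and PRDM1 from -0.19 to 0.10. POU2AF1 kept its sign, from 0.18 to 1.48. The pairs of members past the threshold numbered 4, 2 with an offset of 1, and 2 (without fox 86) to 6 (without fox 97 or 381) with 1 fox left out. The genes with groups that do not overlap numbered 0 to 1, and probe sets called by sex 1 to 2, the higher count without fox 55. The causes were not tested. Dim probe sets (CD79B, CD79A, most of PIGR) are limited by array background. No paired analysis was possible because each fox has its own number.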
